A study of Mus musculus with 10 samples.

Results

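The bone morphogenetic protein (BMP) ligands are described here: Bmp2, Bmp3, Bmp4, Bmp5, Bmp6, Bmp7, Bmp8a, Bmp8b, Gdf5 and Gdf10. They were taken by symbol from the deposited gene table, which held all 10 among its 29583 rows, and their counts and FPKM values (fragments mapped to a gene, scaled to transcript length and library size, and so a level per length) were read in all 10 libraries. The question was which of these ligands the cells make, given that Bmp2 was close to 0.

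MC3T3-E1 is a preosteoblast line derived from the skull bone of a newborn C57BL/6 mouse, here as a single clone, subclone 14. Cells at passage 3 were grown in standard medium with β-ecdysterone, an ecdysteroid of plant and insect origin, and polyadenylated RNA was sequenced. There was 1 library each at 0, 100, 150 and 200 μM after 5 days and after 10 days, so that the 6 libraries with the compound are called treated and the 2 libraries at 0 μM serve as their controls. A further 2 libraries, A-5 and B-4, were labelled untreated, with no time of culture, and were compared separately. The labels name bone marrow mesenchymal stem cells as the source of every library while the titles name MC3T3-E1. The protocol gives n = 3, but there was 1 library per dose and day, and whether a library holds pooled cultures is not stated. Nothing states that the libraries came from separate cultures, so p-values measure the spread between these libraries, which may be technical.

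BMPs are secreted dimers of the transforming growth factor β (TGF-β) superfamily, made as precursors that proteases such as furin cut. They bind pairs of type 1 and type 2 receptors, which phosphorylate Smad1, Smad5 and Smad9, and these enter the nucleus with Smad4 to switch on genes such as the Id genes. BMPs were first known for inducing bone, and secreted antagonists such as noggin and gremlin hold them away from their receptors.

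The libraries held 27108562 to 58218009 counts, and the floor of 3 counts stood for 0.0502 to 0.118 CPM (counts scaled to the library total, here after TMM, and not to gene length). In each library 229 to 315 genes had exactly 1 count and 1020 to 1412 had exactly 2, which is not the pattern of independent counts. The counting intervals below take counts as independent and cover counting error only, so that they may be too narrow and the floor of 3 counts too low. All 10 osteoblast markers examined passed the filter on low counts in the comparison with 0 μM, with a summed level of 15062 to 39485 CPM in every library, and 6 of them were higher in treated cells. Alpl, the alkaline phosphatase of osteoblasts, had 0 to 2 counts in the libraries at 0 μM. Markers of other cell types were examined as well, beside 13.4% of all genes tested that were called higher and 5.98% called lower. The 7 endothelial markers summed to 1.68 to 1.75 CPM at 0 μM and 5.53 to 8.17 CPM in treated libraries, with 3 of 4 tested called higher. The 7 muscle markers summed to 2.05 to 2.28 and 4.84 to 9.47 CPM, with 2 of 4 tested called higher, and the 7 adipocyte markers to 1.90 to 2.20 and 3.00 to 5.90 CPM, with 2 of 5 called higher. Of those called, Cdh5 (endothelial), Ckm (muscle), and Cd36 and Lep (adipocyte) were at 0 to 0.0298 FPKM at 0 μM. They passed the filter through the treated libraries, so that the numbers called say little about these groups. The 7 macrophage markers summed to 27.9 to 40.4 CPM at 0 μM and 34.9 to 67.7 CPM in treated libraries, with 1 of 4 tested called higher and 1 lower, and Tyrobp, a signalling adaptor of myeloid cells, was at 0 in all libraries. The 7 chondrocyte markers summed to 92.2 to 105 and 87.2 to 168 CPM, with 1 of 5 tested called higher. The 7 marrow stroma markers summed to 863 to 977 and 537 to 690 CPM, with 3 of 6 tested called higher and 1 lower. The part of such markers in the results below was not tested. In such bulk libraries, fewer cells that make a ligand and less of its RNA per cell cannot be told apart.

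The ligands are spread over the genome, except that Bmp8a (ENSMUSG00000032726, chr4:123312645-123343252, minus strand) and Bmp8b (ENSMUSG00000002384, chr4:123105165-123132099, plus strand) lie in the same region of a chromosome in the GRCm38 annotation of GENCODE. This pair is shown first because reads can be shared between them. Their coding sequences, of 1197 bases each, were identical at 1053 positions (88.0%), against 63.7% for Bmp2 and Bmp4 and 64.4% for Bmp5 and Bmp7. The longest stretch that Bmp8a and Bmp8b have in common runs over 182 coding bases of exons 2 and 3, at chr4:123324593-123325163 in Bmp8a and chr4:123114693-123115262 in Bmp8b with an intron in between:
Bmp8a and Bmp8b: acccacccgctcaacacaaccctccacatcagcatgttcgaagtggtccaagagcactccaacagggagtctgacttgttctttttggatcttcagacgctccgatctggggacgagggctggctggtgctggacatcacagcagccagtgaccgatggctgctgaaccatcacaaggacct
A read that falls wholly inside such a stretch cannot be given to either gene. Of all stretches of 100 bases in the transcripts compared, 109 of 1818 in Bmp8a (6.00%) and 109 of 2841 in Bmp8b (3.84%) were present in the other gene. The 2 counts were therefore also summed, which does not depend on how shared reads were divided.

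The 250 bases before the start of Bmp4, Bmp8a and Bmp8b, the ligands with the highest levels, are shown from RefSeq (GRCm38.p6), to set the promoters of genes that changed beside that of one that did not pass the test. Capitals mark GC boxes, the GGGCGG letters that Sp1-family factors bind, or CCGCCC where the box lies on the other strand. They stand at chr14:46390670-46390919 (minus strand), chr4:123343253-123343502 (minus strand) and chr4:123104911-123105160 (plus strand):
Bmp4: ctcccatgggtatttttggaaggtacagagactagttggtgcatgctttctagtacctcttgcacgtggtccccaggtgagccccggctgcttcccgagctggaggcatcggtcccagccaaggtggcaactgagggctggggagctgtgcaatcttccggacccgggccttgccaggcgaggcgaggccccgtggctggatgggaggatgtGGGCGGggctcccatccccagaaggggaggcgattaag
Bmp8a: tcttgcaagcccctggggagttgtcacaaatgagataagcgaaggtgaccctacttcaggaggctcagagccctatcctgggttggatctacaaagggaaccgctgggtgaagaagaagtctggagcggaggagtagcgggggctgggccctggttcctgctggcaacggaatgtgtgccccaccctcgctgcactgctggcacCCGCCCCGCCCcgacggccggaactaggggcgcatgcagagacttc
Bmp8b: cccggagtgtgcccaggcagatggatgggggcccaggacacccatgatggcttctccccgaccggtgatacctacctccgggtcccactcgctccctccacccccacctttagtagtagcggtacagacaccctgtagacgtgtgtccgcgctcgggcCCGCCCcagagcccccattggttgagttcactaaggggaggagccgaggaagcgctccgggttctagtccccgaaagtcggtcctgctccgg
Bmp4 had 1 GC box, Bmp8a 2 that overlap by 1 base and Bmp8b 1, and a GC box was found in 32.7% of 32851 promoters of the same kind. TGTGGT, a core of sites for RUNX factors, and the TATA box TATAAA were in none of the 3 on either strand, against 14.0% and 12.4% of all promoters. G and C made up 63.2%, 62.0% and 65.2% of these bases, against a median of 52.4% over all promoters. Although their coding sequences were 88.0% identical, the promoters of Bmp8a and Bmp8b matched at 43.5% of aligned positions.

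Bmp4 (ENSMUSG00000021835, chr14:46383520-46390669, minus strand), a ligand of the same branch as Bmp2 and a strong inducer of bone, had the highest level of the 10 ligands. Its level was 2.26 FPKM at 0 μM on day 5 and 2.53 FPKM at 0 μM on day 10. In the 6 treated libraries it was lowest at 2.02 FPKM, had a median of 2.29 FPKM and was highest at 3.36 FPKM. In the untreated libraries it was 0.179 FPKM in A-5 and 0.403 FPKM in B-4. The libraries at 0 μM fell inside the treated range, while both untreated libraries fell below all the others. No ligand was above 1 FPKM in every library, and Bmp4 was the only one above 1 FPKM in the 8 libraries with a stated dose and day. Bmp4 RNA was itself of middling abundance, since 45.4% to 53.5% of the genes with a level above 0 were below it in those 8 libraries, and 22.9% and 31.7% in the untreated ones.

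Bmp8a, a ligand best known from the testis and from thermogenic fat, came next in mean level. It was listed at 0 FPKM at 0 μM on day 5 and at 0.0459 FPKM at 0 μM on day 10. On day 5 it was 0.418 FPKM at 100 μM, 0.444 FPKM at 150 μM and 0.260 FPKM at 200 μM. On day 10 it was 0.193, 0.635 and 0.586 FPKM at the same doses. All 6 treated libraries were above both libraries at 0 μM. Of the untreated libraries, A-5 was at 0.0166 FPKM, below every treated library, while B-4 was at 0.248 FPKM, inside the treated range.

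Bmp8b, its close relative, followed, at 0.00988 FPKM and 0.0136 FPKM at 0 μM on days 5 and 10. At 100, 150 and 200 μM it was 0.0453, 0.0928 and 0.0655 FPKM on day 5. On day 10 it was 0.148, 0.172 and 0.158 FPKM. The treated libraries were again all above those at 0 μM, and the 3 of day 10 were all above the 3 of day 5. A-5 was listed at 0 and B-4 at 0.0383 FPKM. These levels rested on few counts, with 2 counts of Bmp8b in each library at 0 μM and 5 to 32 in treated libraries.

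**Figure D1:**
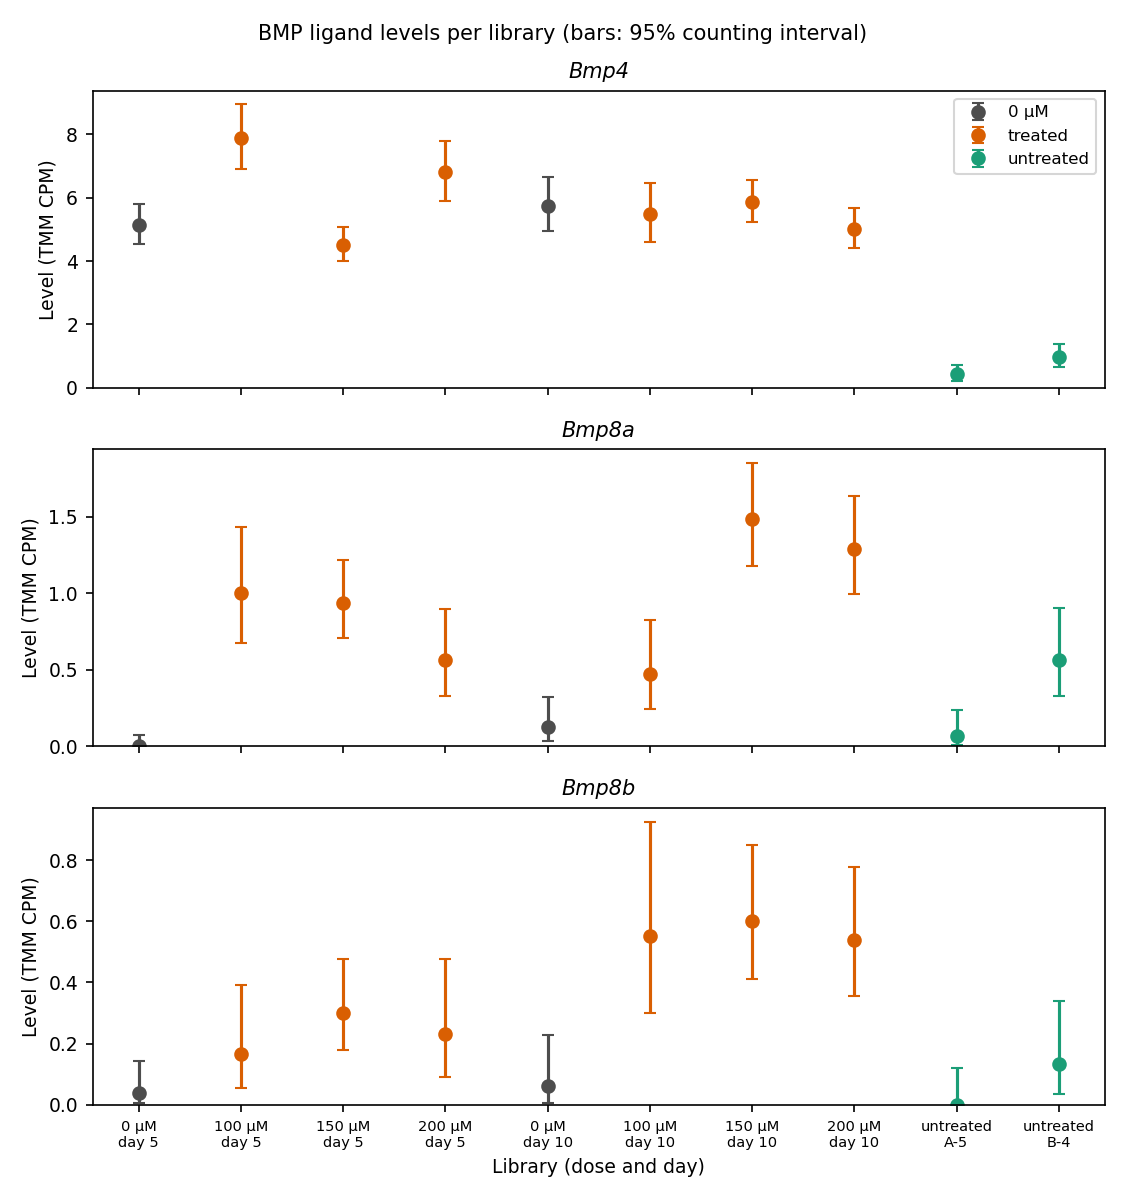
Level of Bmp4, Bmp8a and Bmp8b (vertical axes, TMM-scaled CPM) in each of the 10 libraries (horizontal axis), with exact 95% Poisson counting intervals as bars. Bmp4 was between 4.52 and 7.87 CPM in the 8 libraries with a stated dose and day and at 0.427 and 0.960 CPM in the untreated ones, while Bmp8a and Bmp8b were lowest at 0 μM or in A-5 and were higher in all 6 treated libraries than at 0 μM.

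Bmp6, Gdf5 and Bmp7 were seen at a few counts and in some libraries only. Bmp6, which in the body is known for setting hepcidin in the liver, had 11 counts at 0 μM on day 5, none at 0 μM on day 10 and 0 to 14 in treated libraries. Gdf5, a ligand of joint formation, had 0 and 2 counts at 0 μM and 0 to 14 in treated libraries, of which 22 of 26 counts were on day 5. Bmp7, known for kidney development and clinical use in bone repair, had 4 and 0 counts at 0 μM and 0 to 9 in treated libraries. For all of them the levels at 0 μM lay within the treated range.

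Bmp2 (ENSMUSG00000027358, chr2:133552159-133562885, plus strand), the classical inducer of osteoblast differentiation, had 2 counts in the 0 μM library of day 5 and 0 in the other 9. Over its transcript of 3555 bases, a count of 0 allows a level of up to 0.0145 to 0.0311 FPKM, depending on the library. The level of Bmp4 was 69.7 to 167 times that limit in the 8 libraries with a stated dose and day. Bmp5 had 3 counts, all at 100 μM on day 5. Bmp3, a ligand that opposes osteogenic BMPs, and its relative Gdf10 had 0 counts in all 10 libraries, which allows up to 0.0167 and 0.0212 FPKM.

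Ordered by mean level over the 10 libraries, Bmp4 stood at 2.04 ± 1.01 FPKM (SD, n = 10), Bmp8a at 0.285 ± 0.230 and Bmp8b at 0.0743 ± 0.0648. Bmp6 followed at 0.0250 ± 0.0216 FPKM, Gdf5 at 0.0247 ± 0.0279 and Bmp7 at 0.0161 ± 0.0143. Bmp5 had a mean of 0.00155 FPKM and Bmp2 of 0.00101 FPKM. Bmp4 was above Bmp8a in 10 of 10 libraries, although their ranges overlapped once the untreated libraries were counted. Bmp8a was above Bmp8b in 9 libraries and Bmp8b above Bmp6 in 8, with ranges that overlapped. Bmp6 was above Gdf5 in 5 of 10 libraries, so that these neighbours in the order did not differ beyond their spread. Gdf5 was above Bmp7 in 6 libraries, Bmp7 above Bmp5 in 7, with 34 against 3 counts in all, and Bmp5 above Bmp2 in 1, with ranges that overlapped and reached 0 in each pair.

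Added over the 10 ligands, the level was 2.35 and 2.62 FPKM at 0 μM, 2.56 to 3.87 FPKM in treated libraries and 0.233 and 0.746 FPKM in the untreated ones. Bmp4 made up 96.1% and 96.8% of this sum at 0 μM. In treated libraries its share was 72.7% to 87.2%, and in all 6 it was below both values at 0 μM. Bmp8a made up 0% and 1.76% at 0 μM, and 7.54% to 20.1% in treated libraries. Bmp8b made up 0.420% and 0.521% at 0 μM, and 1.17% to 5.81% in treated libraries. In A-5 the share of Bmp4 was 76.7% and in B-4 it was 54.1%, where Bmp8a made up 33.2%. Each library held counts of 4 to 6 of the 10 ligands.

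**Figure D2:**
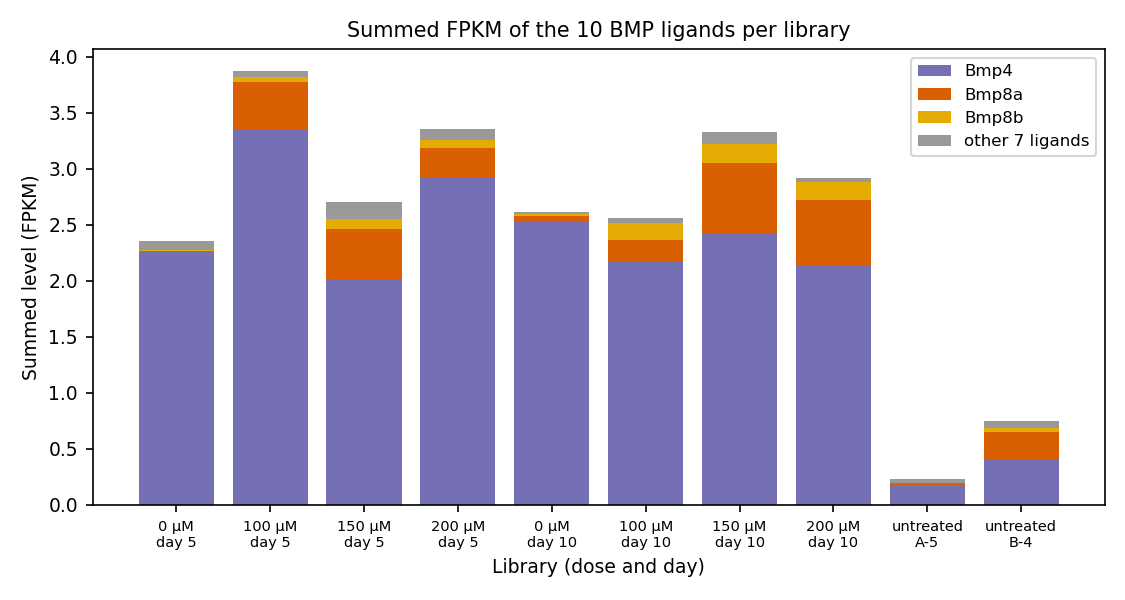
Summed level of the 10 ligands (vertical axis, FPKM) in each library (horizontal axis), divided into Bmp4, Bmp8a, Bmp8b and the other 7 ligands. Bmp4 fills 96.1% and 96.8% of the bars at 0 μM and 72.7% to 87.2% of the treated bars, and the untreated bars reach only 0.233 and 0.746 FPKM.

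Bmp8a and Bmp8b were higher in treated cells than at 0 μM, and a change of Bmp4 was not detected. The 6 treated libraries were compared with the 2 at 0 μM over 16794 genes by edgeR's quasi-likelihood test, with the day as a term of the model. To be called, a gene had to differ by more than 1 on the log2 scale, in either direction, with an adjusted p (Benjamini-Hochberg) below 0.05. Of the 10 ligands, Bmp4, Bmp8a and Bmp8b passed the filter on low counts, of which 2 were called higher and 0 lower. Among all genes tested, 13.4% were called higher and 5.98% lower. Bmp8a and Bmp8b passed the filter through the treated libraries, so that their number says nothing about the ligands as a group.

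For Bmp8a the log2 fold change was 4.18 (SE 0.84, 95% interval 2.31 to 6.04, edgeR adjusted p = 0.00297). In plain counts, 261 in treated libraries against 4 at 0 μM gave a ratio of 21.5 after scaling for library size (exact 95% interval 8.29 to 79.5). On day 5, where 0 μM had no count, the treated libraries were 14.6-fold above the floor of 3 counts in the 0 μM library. That value leaves out counting error in the treated libraries. On day 10 the ratio was 9.56 (3.66 to 35.5). In CPM, the treated libraries were at 0.473 to 1.48 and those at 0 μM at 0 and 0.126, without overlap. The counting intervals on day 10 at 100 μM (0.244 to 0.826 CPM) and at 0 μM (0.034 to 0.324 CPM) did overlap.

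For Bmp8b the log2 fold change was 2.82 (SE 0.56, 95% interval 1.56 to 4.08, edgeR adjusted p = 0.00294). The ratio of 104 to 4 counts was 8.56 (3.25 to 32.0). The treated libraries were at 0.168 to 0.601 CPM and those at 0 μM at 0.0393 and 0.0632 CPM, without overlap. The counting intervals on day 5 had lower ends of 0.0544, 0.0929 and 0.179 CPM at 100, 200 and 150 μM. All of these were below the upper end at 0 μM on day 10, 0.228 CPM. Those at 100 and 200 μM were also below the upper end at 0 μM on day 5, 0.142 CPM. On day 10 the treated lower ends, 0.301 to 0.411 CPM, were above both. The call of Bmp8b was lost without the 0 μM library of day 10, at an edgeR adjusted p of 0.0618, and Bmp8a without that library had a log2 fold change of 8.18, since the remaining control held 0 counts.

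With the counts of Bmp8a and Bmp8b summed, the libraries at 0 μM held 2 and 6 counts (0.0393 and 0.190 CPM) and the treated libraries 24 to 111 counts (0.792 to 2.09 CPM). The log2 fold change of the sum was 3.70 (SE 0.53, 95% interval 2.52 to 4.89, edgeR adjusted p = 0.000428), an alternative chosen after the values were seen. It was 3.11 without the 0 μM library of day 5 and 4.66 without that of day 10, with edgeR adjusted p of 0.00571 and 0.00259. Other genes lie over these loci, and the library kit as described does not mark strand. Oxct2a, inside Bmp8a, had 0 to 10 counts and Oxct2b, inside Bmp8b, 0 to 9. Ppie, which overlaps the end of Bmp8b on the other strand, had 372 to 926 counts, and reads in the overlap cannot be told apart.

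For Bmp4 the log2 fold change was 0.11 (SE 0.22, 95% interval -0.38 to 0.60, edgeR adjusted p = 0.719). The interval spans changes between 0.766 and 1.51 times the level at 0 μM. The ratio of 1423 to 443 counts was 1.06 (0.950 to 1.18). The sign of this small difference rested on 1 library: without 0 μM on day 5 it was -0.08. Among treated libraries Bmp4 was highest at 100 μM on day 5, at 7.87 CPM, and lowest at 150 μM on day 5, at 4.52 CPM, with the libraries at 0 μM, at 5.13 and 5.75 CPM, between them.

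The other ligands did not pass the filter. In a fit that kept every gene with at least 1 count, the log2 fold change was -0.09 for Bmp6 (SE 1.33), 1.34 for Bmp7 (SE 1.36), 1.14 for Gdf5 (SE 1.77), -2.72 for Bmp2 (SE 2.10) and 2.63 for Bmp5 (SE 2.93), with edgeR adjusted p of 0.396 to 0.966. None of them was called at these depths. In plain counts Gdf5 had 26 in treated libraries against 2 at 0 μM, a ratio of 4.28 (exact 95% interval 1.07 to 37.2). On day 5, where 0 μM had no count, treated libraries were 3.11-fold above the floor of 3 counts in that library. That value leaves out counting error in the treated libraries. On day 10 the ratio was 0.484 (0.0694 to 5.35). Without the 0 μM library of day 10 the fitted value of Gdf5 was 5.91 (edgeR adjusted p = 0.126), against a control of 0 counts. DESeq2 called Bmp8a and Bmp8b as well and no other ligand.

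**Figure D3:**
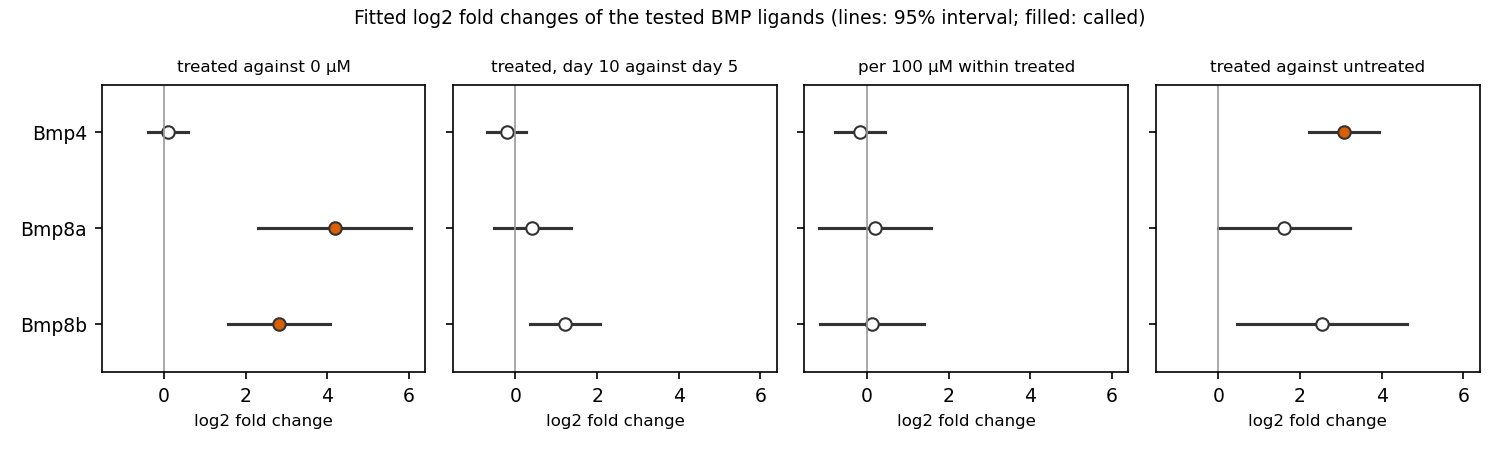
Fitted log2 fold changes (horizontal axes) of Bmp4, Bmp8a and Bmp8b with 95% intervals as lines, for treated against 0 μM, day 10 against day 5 within treated, the slope per 100 μM within treated, and treated against untreated; filled points were called. Bmp8a (4.18) and Bmp8b (2.82) were called against 0 μM and Bmp4 (3.08) against untreated.

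The ligands were next compared between days and doses. Among the 6 treated libraries, 0 of the 3 tested ligands were called between day 10 and day 5, where 1.05% of 16020 genes were. Bmp8b had a log2 fold change of 1.22 (SE 0.38, 95% interval 0.36 to 2.08, edgeR adjusted p = 0.13). In CPM it was at 0.168 to 0.301 on day 5 and at 0.538 to 0.601 on day 10, without overlap. Some counting intervals did overlap, as at 150 μM on day 5 (0.179 to 0.476 CPM) and 100 μM on day 10 (0.301 to 0.925 CPM). Bmp8a differed by 0.41 (SE 0.42) and Bmp4 by -0.22 (SE 0.22) on the log2 scale, with edgeR adjusted p of 0.669 and 0.661. With the days paired by dose, an alternative chosen after the values were seen, 0 ligands were called, and Bmp8b, higher on day 10 in 3 of 3 doses, differed by 1.25 (SE 0.44, edgeR adjusted p = 0.166). In the unpaired fit Bmp8b was the 1 ligand with an unadjusted p under 0.05, as were 2930 of all genes, and DESeq2 called no ligand. Gdf5, outside the filter, held 22 counts on day 5 and 4 on day 10, with a log2 fold change of -2.43 (SE 1.27) and an edgeR adjusted p of 0.43 in the fit of all genes with a count.

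Taken day by day against the single 0 μM library, Bmp8b differed by 2.51 (SE 0.86) on day 5 and 3.09 (SE 0.85) on day 10 on the log2 scale, with edgeR adjusted p of 0.0632 and 0.022. Bmp8a differed by 3.10 (SE 0.87) on day 10, and for day 5 the value against the floor of 3 counts is given above. The difference between the effects of the days was itself tested, and 0 of 3 ligands were called against 0.0112% of 17799 genes. For Bmp8b it was 0.59 (95% interval -2.67 to 3.84) and for Bmp8a -5.03 (-10.15 to 0.10, edgeR adjusted p = 0.617), the latter against a day 5 control of 0 counts. No ligand and 1464 of all genes had an unadjusted p under 0.05.

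With dose, 0 of 3 ligands were called, and 0.006% of 16664 genes were. Per 100 μM the log2 slope was -0.17 (95% interval -0.78 to 0.44) for Bmp4, 0.20 (-1.17 to 1.58) for Bmp8a and 0.13 (-1.14 to 1.40) for Bmp8b, each with an edgeR adjusted p of 0.997. In CPM, Bmp8a was highest at 100 μM on day 5, at 1.01 CPM, and at 150 μM on day 10, at 1.48 CPM. In FPKM it was highest at 150 μM on both days, at 0.444 and 0.635 FPKM. On day 5 the counting intervals at 100 μM (0.678 to 1.43 CPM) and 150 μM (0.708 to 1.22 CPM) overlapped, so that the order of these doses is not settled. No ligand and 391 of all genes had an unadjusted p under 0.05, and DESeq2 called no ligand. The 150 μM libraries were the deepest of each day, as well as being a dose of their own, and depth and dose cannot be told apart there.

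Bmp4 was lower in the untreated libraries than at 0 μM in every pair of libraries. With 13 and 29 counts against 261 and 182, the level at 0 μM was 7.75 times that of the untreated libraries (exact 95% interval 5.64 to 10.9). In a comparison chosen after the values were seen, the log2 fold change of untreated against 0 μM was -2.97 (SE 0.49, edgeR adjusted p = 0.235), which was not called. That fit called 0.0% of 14555 genes at 2 libraries against 2, while 2698 had an unadjusted p under 0.05, Bmp4 among them, and DESeq2 called Bmp4 and 603 genes in all. Without A-5 or without B-4 edgeR also called Bmp4, with the lone untreated library assumed to vary like the others. Those fits called many other genes as well and differed widely in how many, so that they add little to the call of Bmp4. Bmp8a had 2 counts in A-5 and 17 in B-4, a ratio of 8.57 (2.03 to 76.5) between libraries of the same label.

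Against the untreated libraries, treated cells had more Bmp4, with a log2 fold change of 3.08 (SE 0.38, 95% interval 2.22 to 3.94, edgeR adjusted p = 0.00185). This was 1 called ligand of 3 tested, where 6.73% of 16012 genes were called higher. Bmp8a differed by 1.61 (SE 0.72, edgeR adjusted p = 0.142) and Bmp8b by 2.54 (SE 0.93, edgeR adjusted p = 0.0823), neither of which was called. The ligand that was called therefore depended on which control was used. The labels give the untreated libraries no time in culture and do not say how they differ from 0 μM.

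The receptors, Smads and proteases of the pathway were then examined. Of 11 receptors and co-receptors, 10 were in the table and 8 were tested, of which 1 was called higher and 0 lower, with a median log2 fold change of 0.35 against 0.05 over all genes. Over all genes tested, 13.4% were called higher and 5.98% lower, so that 1 of 8 is near the general share. The type 1 receptor Bmpr1a stood at 18.2 to 25.9 FPKM over the 10 libraries and the type 2 receptor Bmpr2 at 6.87 to 9.52 FPKM, named after their values were seen. The receptor called was Acvrl1, the type 1 receptor of endothelial cells, at 0 to 0.136 FPKM, with a log2 fold change of 1.64 (SE 0.50). Of the 4 Smads that carry the signal none was called, with a median of -0.01. Of 7 proteases that cut ligands or antagonists, 3 were tested and none was called, with Furin at 18.3 to 35.0 FPKM.

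Secreted antagonists were called in both directions. Of 15 in the table, 12 were tested, and their median log2 fold change was 0.23. Beside 13.4% of all genes tested called higher and 5.98% lower, 5 antagonists were called higher and 1 lower. The 5 include 2, Chrdl2 and Sost, that had no level at 0 μM and so passed the filter through the treated libraries alone. Bmper, which binds BMPs outside the cell and can hinder or help them, was at 3.80 FPKM at 0 μM and 29.7 ± 7.38 FPKM (SD, n = 6) in treated cells, a log2 fold change of 3.01 (SE 0.26). Grem1, gremlin, fell by 2.33 on the log2 scale (SE 0.18), from 15.1 to 2.90 ± 0.687 FPKM. Chrdl1, a chordin-like antagonist, was at 42.8 FPKM at 0 μM and 119 ± 54.3 FPKM in treated cells, a log2 fold change of 1.48 (SE 0.36). Nbl1, also called and named after its values were seen, as were Chrdl2 and Sost, had a log2 fold change of 1.24 (SE 0.15). In untreated B-4, Grem1 (2.515 FPKM) and Nbl1 (36.0 FPKM) were inside their treated ranges of 2.22 to 3.85 and 25.5 to 47.0 FPKM. In A-5 they were outside, at 15.5 and 17.4 FPKM. Bmper and Chrdl1 were below their treated ranges in both untreated libraries. Nog, noggin, had 0 counts in all libraries.

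Among 14 targets of BMP Smads, 12 were tested, 2 were called higher and 0 lower, with a median log2 fold change of 0.66. The 2 of 12 called higher are near the share of 13.4% over all genes tested. Tmem100, a membrane protein that BMP signals induce in endothelium, rose by 3.77 (SE 0.28), from 0.509 to 7.06 ± 1.31 FPKM. Bambi, a decoy receptor that is also a target, rose by 1.19 (SE 0.34), at 0.089 and 0.203 ± 0.0591 FPKM. The Id genes, the most direct targets, were not called, with log2 fold changes of -0.01 for Id1, 0.63 for Id2, 0.82 for Id3 and -0.19 for Id4 and edgeR adjusted p of 0.127 to 0.983. Of 8 inhibitors inside the cell and at its membrane, Bambi was the 1 called, with a median of -0.03.

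Other ligands of the TGF-β superfamily included some with higher levels than Bmp4. Of 22 such ligands, Tgfb3 had the highest mean level, at 16.3 FPKM (range 8.52 to 20.1), followed by Tgfb1 at 15.1 FPKM (12.0 to 22.6) and Gdf11 at 10.1 FPKM (7.12 to 15.2). The mean of Tgfb3 was 8.01 times that of Bmp4, and their ranges did not overlap. Of the 22, 13 were tested against 0 μM, and 3 were called higher and 0 lower, with a median log2 fold change of 0.29. Over all genes tested, 13.4% were called higher and 5.98% lower. Gdf15, a stress-induced cytokine, rose by 2.22 (SE 0.37), Gdf6, a close relative of Gdf5, by 1.61 (SE 0.21) and Tgfb2 by 1.29 (SE 0.11). Gdf6 was at 0.460 FPKM at 0 μM and 1.36 ± 0.304 FPKM in treated cells. Its mean level in treated cells was above that of every BMP ligand listed here but Bmp4. In untreated A-5 and B-4 Gdf6 was at 1.4934 and 1.2049 FPKM, both inside its treated range of 1.008 to 1.7261 FPKM. The higher level of Gdf6 in treated cells was therefore seen against 0 μM only. Gdf15 and Tgfb2 were below their treated ranges in both untreated libraries.

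**Figure D4:**
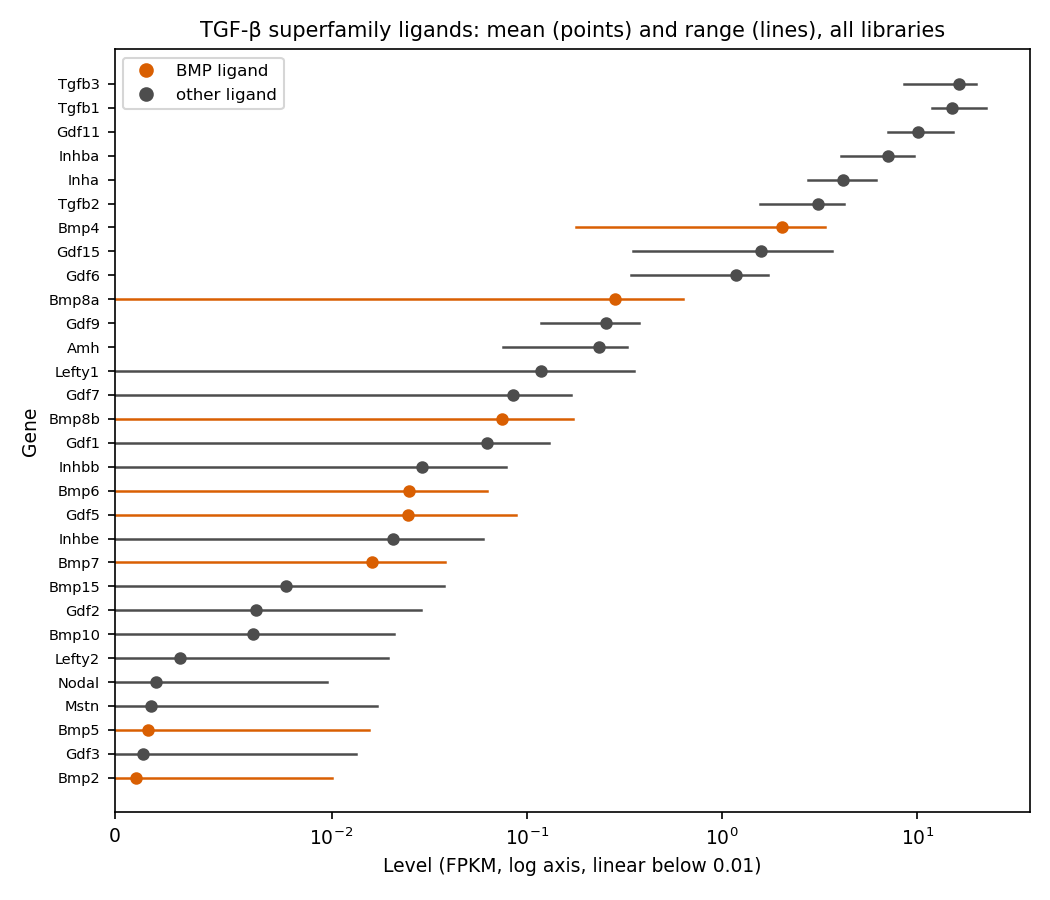
Mean level (points) and range (lines) over the 10 libraries, in FPKM on a log axis that is linear below 0.01, of the BMP ligands and of the other TGF-β superfamily ligands with any count. Tgfb3 (16.3 FPKM) leads, Bmp4 (2.04 FPKM) is the highest BMP ligand, and Bmp2 lies at the bottom at 0.00101 FPKM.

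Finally, the genes whose pattern was most like that of the leading ligands were listed by Pearson's r of log2 CPM over the 10 libraries, among 10393 genes, as a description. For Bmp4 they were Carm1, an arginine methyltransferase (r = 0.981), Eif3f, a translation initiation factor subunit (0.981), and Sun2, a nuclear envelope protein (0.977). These values drew on the low untreated libraries, as over the 8 others r was 0.508, 0.877 and 0.652. For Bmp8a they included Pex3, which serves peroxisome assembly (r = 0.968), and Zbtb16, a zinc finger transcription factor (0.959), with 0.980 and 0.962 over the 8 libraries. Pex3 and Zbtb16, like Bmp8a, were lower in both libraries at 0 μM than in every treated library, and these r values carry that difference. Whether they go together within treated cells was not tested. Bmp8a and Bmp8b, which share coding sequence, had an r of 0.836 with each other, and 0.834 over the 8 libraries. Bmp4 had 0.337 with Bmp8a and 0.567 with Bmp8b, but 0.175 and -0.132 over the 8 libraries, so that the sign of the latter rested on the untreated ones.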

How the data were processed

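RNA was sequenced from 10 libraries of MC3T3-E1 cells. The authors deposited 1 table with raw read counts per gene and FPKM values per gene. The submitters' processing notes name HISAT2 2.0.4 and GATK 3.2-2; the counting program and genome build are not given in the sources used here. Deposited columns with the authors' own edgeR comparisons (p-values, fold changes) and annotations were not used. Counts were tested over all genes with edgeR 4.0.16 (quasi-likelihood test, TMM, filterByExpr) in R 4.3.3, with Benjamini-Hochberg adjustment. DESeq2 1.42.0, and limma 3.58.1 on log2(FPKM + 1) or log2(FPKM + 0.1), were alternatives. Standard errors were obtained from the fold change and its F statistic. Count ratios have exact conditional binomial intervals. Tables were made with Python 3.11.15, pandas 2.3.3 and scipy 1.17.1, and alignments with Biopython 1.88. Gene positions came from GENCODE M21 (GRCm38) and promoters from RefSeq, where Bmp4, Bmp5, Bmp6, Bmp8a, Bmp8b and Gdf10 matched by symbol.

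The members and lists were chosen with earlier results of these data known. The genes named were the 10 ligands, and up to 3 called genes with the largest fold change and a mean of at least 1 CPM in each pathway list. To these were added the 3 other superfamily ligands highest in mean FPKM and, for each of the 2 leading ligands, the 3 genes of at least 5 CPM with the highest r, of which 1 is not reported here. On simulated data the edgeR test recovered 200 of 200 changed genes for treated against 0 μM and 200 of 200 between days, 188 for dose and 171 for the difference between days, with 1, 1, 5 and 12 unchanged genes called. The changed genes were drawn only from genes above a limit of expected counts, with changes of a fixed size and a single assumed dispersion. This recovery therefore does not speak for ligands with few counts or for smaller changes.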

Additional observations from a re-analysis of the deposited data

Results flagged for a closer look

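Bmp5 was at 0.101 CPM (3 counts) in the treated library of 100 μM on day 5 and at 0 in the other 5 treated libraries, which met the rule for a lone sample because all the others were equal. The upper ends of the counting intervals at 200 μM on day 5 (0.122 CPM) and 100 μM on day 10 (0.145 CPM) were above that value. Those at 150 μM on day 5 (0.0617 CPM) and at 150 and 200 μM on day 10 (0.0693 and 0.0709 CPM) were below it. The interval of the library itself, 0.0207 to 0.294 CPM, overlapped each of these, so it was not set apart beyond counting error.

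Bmp8a was at 0.563 CPM (17 counts, exact 95% interval 0.328 to 0.901) in the untreated library B-4, above the upper ends of the counting intervals of both libraries at 0 μM (0.0725 and 0.324 CPM). Library A-5, of the same label, was at 0.0657 CPM (2 counts).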

How the results depend on the processing

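The 2 ligands called in treated cells against 0 μM were also 2 in number with DESeq2, library totals, DESeq2 size factors in edgeR, at least 1 count in total, no day covariate and no fold limit. The number was 1 with limma on log2(FPKM + 0.1), and 0 with limma on log2(FPKM + 1), where Bmp8a and Bmp8b moved by 0.47 and 0.14, inside the fold limit, because the pseudocount exceeds their levels. It was 0 with at least 10 counts in every library, which left 1 ligand to test. Against the untreated libraries instead it was 1 (Bmp4), and against all 4 together 1 (Bmp8a); the cause was not tested. Leaving out each library in turn gave 1 to 2, with 1 without 0 μM on day 10. Untreated against 0 μM, with 0 ligands called, gave 1 with DESeq2 and 0 to 1 when each library was left out; the cause was not tested. The number above 1 FPKM, 0 in every library, was 1 by the mean and 1 in the 8 libraries with a stated dose and day.

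The comparisons between days, of the effects of the days and with dose called 0 ligands under every alternative run. The fold change of Bmp4 was -0.0816 without 0 μM on day 5 and 0.02 to 0.94 in 16 other alternatives, and 3.08 against untreated. Leave-out values were -0.08 to 0.29. That of Bmp6 was 0.0241 with DESeq2 and 0.2286 without 100 μM on day 5, with leave-out values of -1.41 to 0.23. Bmp8a kept its direction and call in 18 alternatives (2.04 to 8.18) and Bmp8b in 12 (2.72 to 3.09). The 18 include the fits on the summed counts of Bmp8a and Bmp8b, which were chosen after the values were seen. DESeq2 gave no adjusted p for Bmp2 and Bmp5. The labels give the groups no shared replicate numbers to pair by, and pairing the days by dose called 0 ligands, as did the unpaired fit. The fold change of Gdf5, 1.14 in the fit of all genes with a count, was 5.91 without 0 μM on day 10.

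Depth limits what can be said of Bmp2, Bmp3, Bmp5, Bmp6, Bmp7, Gdf5 and Gdf10, none above 14 counts in a library, and the fold changes of Bmp8a and Bmp8b rest on 4 counts each at 0 μM.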
